A study of Mus musculus with 9 samples.

Results

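The genes described here encode the enzymes with which the mouse colon modifies and clears foreign chemicals, steroids and other lipid-soluble molecules. They were chosen by symbol, as Ensembl genes of the cytochrome P450 families 1 to 4 (Cyp), the carboxylesterases (Ces), the UDP-glucuronosyltransferases (Ugt), the sulfotransferases of families 1 and 2 (Sult) and the glutathione S-transferases with their microsomal relatives (Gst, Mgst), and by a summed count of at least 20 over the 9 mice. Of 27719 genes in the table, 151 had such a symbol and 69 of these reached the summed count: 26 Cyp, 9 Ces, 7 Ugt, 5 Sult and 22 Gst or Mgst genes. The other 82 fell under it, 55 of them without any count. Ugt1a6b with 20 counts and Cyp1b1 with 21 counts lay just inside the limit. Just outside it were Cyp4x1 with 19 counts and Ces1c, Cyp2c23, Cyp3a25 and Gsto2 with 17 counts each.

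RNA came from the colon of C57BL/6J mice in 3 groups of 3, with 1 library per mouse, and was read as full-length cDNA on an Oxford Nanopore instrument. The control mice drank distilled water and were held for 30 minutes without stimulation. The DSS mice drank 2.5% dextran sodium sulfate (DSS), a sulfated sugar polymer that injures the colon lining, for 7 days and were held in the same way. The DSS + EA mice drank the same DSS, and from the end of day 5 they received electroacupuncture (EA), a weak current (2 Hz, 0.2 mA) passed through needles at both ST36 points of the hind limbs for 30 minutes once a day over 5 days. The age of the mice is not given in the sources used here. No group received EA without DSS, so EA was measured in injured colon only, and every animal is its own replicate.

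Detoxification is usually described as a sequence. Cytochrome P450 enzymes and carboxylesterases open a molecule by oxidation or hydrolysis, and transferases then attach glucuronic acid, sulfate or glutathione, which makes the product soluble enough to be exported. In the colon these enzymes are made mainly by the epithelium, most of all by mature absorptive cells, and they meet drugs, plant compounds, bacterial products, bile acids and steroid hormones from the lumen and the blood. Nuclear receptors and transcription factors, among them PXR (Nr1i2), HNF4A, the aryl hydrocarbon receptor and NRF2 (Nfe2l2), control many of their genes.

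Between 2627695 and 4235576 reads were counted per mouse, and the members together took 0.794%, 0.639% and 1.02% of the counts in control mice 1, 2 and 3, 0.576%, 0.279% and 0.232% in the DSS mice and 0.609%, 0.719% and 0.537% in the DSS + EA mice. Values below are given for mice 1, 2 and 3 of a group in that order, in CPM, which are counts divided by a library total that the TMM method adjusted, so that mice of different depth can be compared. The floor used here, 3 counts in a library, was 0.652 to 1.15 CPM. Copies made by PCR could not be recognized, and floors and intervals therefore hold for counting error alone. CPM is not divided by transcript length and is compared between mice, not between genes. Gstp1 held 12.4% of all member counts, Mgst3 11.6%, Mgst1 9.72%, Cyp2c55 8.76% and Gsto1 5.70%, so that these 5 genes made up 48.2%. All p-values come from the edgeR quasi-likelihood test, fitted over the 12566 genes that passed its filter on low counts and adjusted over all of them by the Benjamini-Hochberg method. A gene is said to have risen or fallen where this adjusted p was under 0.05, and a DEG, by the thresholds of the study's methods, had a log2 fold change beyond 2.5 and an unadjusted P under 0.01.

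Of the 69 members, 61 passed the filter on low counts. In 37 of them all 9 mice lay at or over the filter limit, while 8 passed with no DSS mouse at that limit, so that these 8 entered through the groups in which they were high. They were Ces1e, Ces2b, Cyp2c69, Cyp2d12, Cyp2d26, Cyp4f40, Gstm6 and Ugt2b5. All 8 are among the members that fell with DSS and rose with EA added. Because the filter admitted them only through mice outside the DSS group, their tests against the DSS mice were favoured in advance. The remaining 8 members, Cyp1b1, Cyp2f2, Cyp2j9, Cyp2r1, Cyp3a44, Ugt1a6b, Ugt2b35 and Ugt2b36, were too low to test. Many members are close copies of each other. The coding sequences of Ugt1a7c and Ugt1a6b were 98.4% identical, those of Gstp1 and Gstp2 98.1%, Cyp2c68 and Cyp2c69 96.5%, Cyp2d9 and Cyp2d10 92.5% and Ces2b and Ces2c 91.3%, and 12 members had a partner at over 90%. Ugt1a1, Ugt1a7c and Ugt1a6b also share exons at one locus, and 14 members overlap an annotated gene on the opposite strand, Cyp4f18, Gsto1, Gstz1, Sult1a1 and Sult2b1 a protein-coding one. How reads were divided between such copies, and whether strand was used, is not given, so the values of these genes are uncertain as single-gene values.

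The upstream sequences of 5 members are shown. Cyp2c55, Cyp2c65, Cyp2c68 and Cyp2c69 belong to the P450 cluster that held the most counted P450 and a gene without reads in the DSS mice, and Cyp4f18 is the P450 that rose most with DSS. Bases inside the GENCODE gene are left out, so that each run ends just before the transcript start in RefSeq on GRCm38.p6, except that of Cyp2c69, which ends 30 bases before it. All are written 5′ to 3′ on the strand of the gene. Capitals mark whole matches to 3 motifs, searched on both strands: the HNF4A motif CAAAGTCCA, the core of the antioxidant response element TGACNNNGC, and the core of the xenobiotic response element GCGTG, which appears as CACGC on the opposite strand.
Cyp2c55 (+ strand, chr19:39006869-39007018): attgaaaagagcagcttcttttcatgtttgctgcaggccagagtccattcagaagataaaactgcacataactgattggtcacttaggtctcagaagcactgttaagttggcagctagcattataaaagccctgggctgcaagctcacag
Cyp2c65 (+ strand, chr19:39060856-39061005): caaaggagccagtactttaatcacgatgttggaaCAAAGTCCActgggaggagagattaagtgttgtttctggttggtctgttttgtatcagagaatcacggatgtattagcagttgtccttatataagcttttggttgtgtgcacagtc
Cyp2c68 (- strand, chr19:39741102-39741251): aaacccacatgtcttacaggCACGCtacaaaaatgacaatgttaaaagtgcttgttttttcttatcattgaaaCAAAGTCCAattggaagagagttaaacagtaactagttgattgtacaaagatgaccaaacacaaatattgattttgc
Cyp2c69 (- strand, chr19:39886800-39886919): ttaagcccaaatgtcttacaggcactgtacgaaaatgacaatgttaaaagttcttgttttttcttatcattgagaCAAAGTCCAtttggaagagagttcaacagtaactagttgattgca
Cyp4f18 (- strand, chr8:72009627-72009776): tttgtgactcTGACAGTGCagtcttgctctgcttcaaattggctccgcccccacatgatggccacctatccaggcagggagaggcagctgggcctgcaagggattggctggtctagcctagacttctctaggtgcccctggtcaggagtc

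Counted from the transcript start, CAAAGTCCA began at base -116 in Cyp2c65, -77 in Cyp2c68 and -75 in Cyp2c69, and TGACNNNGC at -140 in Cyp4f18. Over the RefSeq windows from 250 bases before to 50 bases after the start, which were found for 60 members, CAAAGTCCA occurred in 4 of 74 member windows (5.41%), those 3 and Sult1b1, and in 0.475% of all 32851 windows. Cyp2c68 and Cyp2c69 are near-identical copies and do not count as separate occurrences. GCGTG was in 24.3% of member windows and 32.4% of all windows, and TGACNNNGC in 10.8% and 12.4%, with Mgst1, Gsta3, Gstm5, Gstm7, Cyp4f14, Cyp2j6 and Cyp2c65 among the holders. A match is only a run of letters and does not show that a factor binds there.

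Compared with the control group, the detoxification genes were mostly lower in the DSS group. Of the 61 tested members 40 fell (65.6%) and 4 rose (6.56%), whereas of all genes tested 19.5% fell and 21.5% rose. The 40 include the 8 that passed the filter with no DSS mouse at its limit, and shares without these are not given. The 4 that rose were Cyp4f18, Cyp4v3, Gstp3 and Mgst1. The median log2 fold change of the members was -1.51, against 0.02 over all genes tested, and it was unchanged with Cyp2c69 set at its bound. Relative to epithelial transcripts 19 of the 40 stayed lower, as described below. DEGs numbered 19, of which 18 were lower and 1 higher, or 31.1% of the members, against 10.2% of all genes tested. The 18 include all of the same 8 members except Gstm6, so their part of this share was favoured in advance. Summed over all members the counts were 7554, 6857 and 10258 CPM in the control mice, 5914, 2572 and 2340.0 CPM in the DSS mice and 6043, 7631 and 5589 CPM in the DSS + EA mice. DSS mice 2 and 3 lay below all other mice, while DSS mouse 1 was above DSS + EA mouse 3. The count of members that rose was 2 when any 1 of the control mice was left out, and without DSS mouse 1 the DEGs numbered 31 and the median was -2.47.

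Every enzyme class had more members that fell than rose, under TMM, RLE and library total scaling alike. Among the Cyp genes 13 fell and 2 rose of 21 tested (median log2 fold change -2.26), and among the Ces genes 7 fell and 0 rose of 9 (median -1.99). All 5 Sult genes fell (median -2.77), as did 3 of 4 Ugt genes (median -2.43). Of 22 Gst and Mgst genes 12 fell and 2 rose, with a median of -1.02 that turned to 0.42 when values were taken relative to epithelial transcripts, as described below. Summed Cyp counts went from 2143 ± 867 CPM in the control group to 288 ± 196 CPM in the DSS group (SD, n = 3), and summed Sult counts from 1044 ± 175 CPM to 191 ± 202 CPM. Summed Gst and Mgst counts were 3835 ± 354 CPM and 2828 ± 1415 CPM, a difference smaller than the spread between the DSS mice. Differences between classes were not tested.

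**Figure D1:**
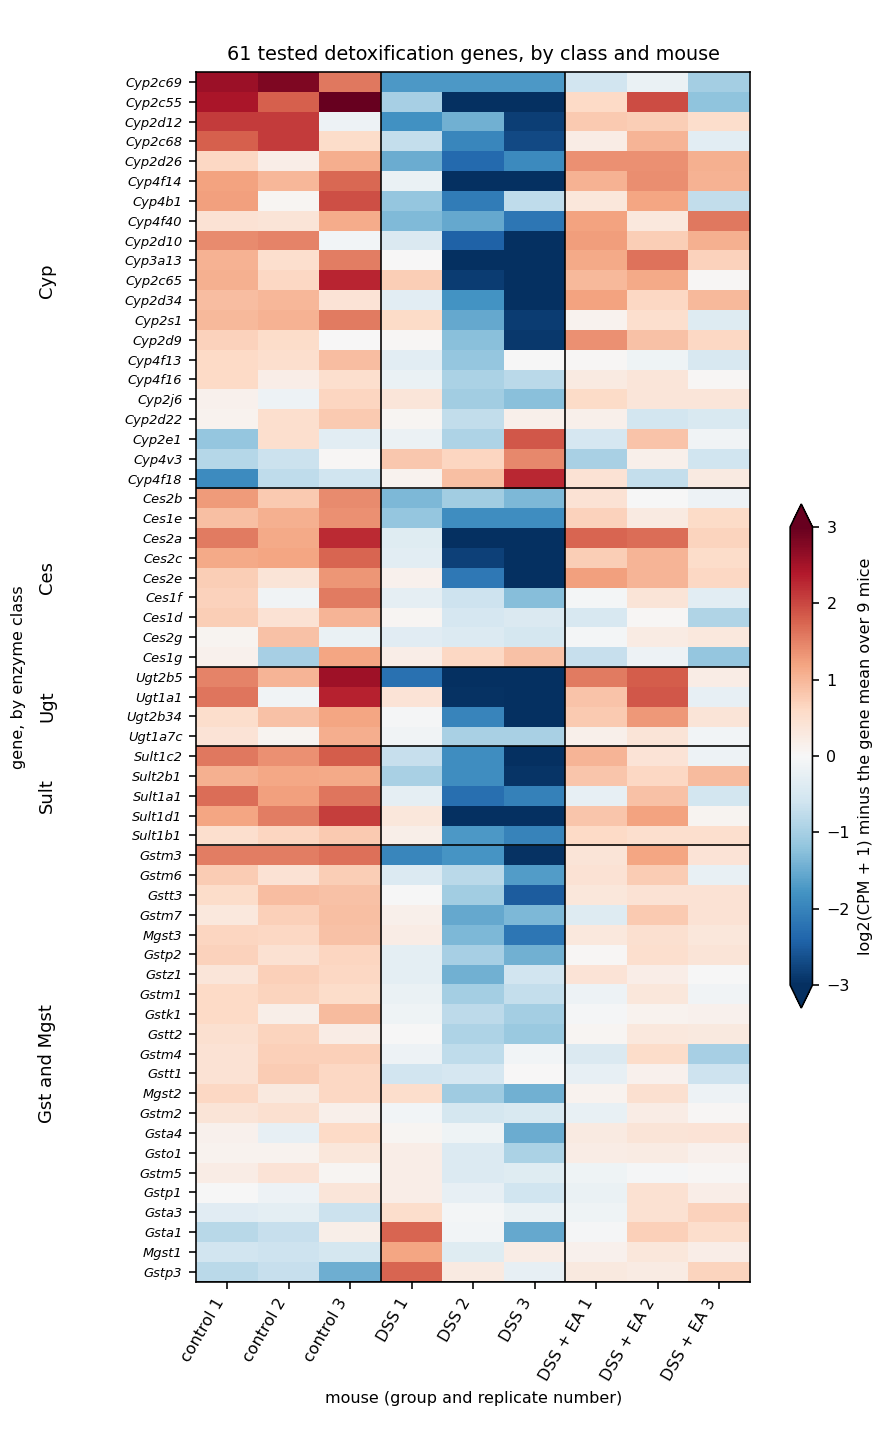
Heat map of the 61 tested members (rows, grouped by enzyme class) in the 9 mice (columns); colour is log2(CPM + 1) minus the mean of the gene over the mice, red above and blue below it. Most rows are blue in the 3 DSS mice, palest in DSS mouse 1, while Mgst1, Gstp3, Cyp4f18 and Cyp4v3 are red in at least 1 DSS mouse.

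With EA added to DSS, 28 members (45.9%) were higher than in the DSS group and 1, Cyp4v3, was lower. Over all genes tested 17.2% were higher and 18.3% lower. Here too the 28 include the 8 members that passed the filter with no DSS mouse at its limit. The median log2 fold change of the members was 1.16, or 1.14 with Cyp2c69 at its bound, against -0.02 over all genes, and 12 members were DEGs, all higher (19.7%, against 6.41% of all genes tested). All of those 8 members except Gstm6 are among the 12 DEGs, so their part of this share was favoured in advance. By class the number that rose was 13 of 21 Cyp genes, 5 of 9 Ces genes, 2 of 4 Ugt genes, 3 of 5 Sult genes and 5 of 22 Gst or Mgst genes. The same 3 DSS mice enter this comparison and the one with the control group, so the values of a gene in both are set side by side below and are not independent. The number that rose depended on single mice. It was 45 without DSS mouse 1, 11 without DSS mouse 2, 14 without DSS + EA mouse 1 and 14 without DSS + EA mouse 2, and without DSS mouse 1 there were 25 DEGs with a median of 2.11. The shares of all genes called in these refits are not given here, so the swing is not read as particular to the members. The single lower call was absent without DSS mouse 3, DSS + EA mouse 1 or DSS + EA mouse 3, and 2 members were lower without control mouse 2, control mouse 3 or DSS mouse 1.

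Between the DSS + EA and control groups 1 member, Cyp2c69, was lower and 0 were higher, but when these groups were fitted without the DSS mice 8 were lower and 2, Mgst1 and Gstp3, higher. In the fit that included the DSS mice, 0.637% of all genes tested were lower and 3.00% higher in this comparison. There 2.08% were DEGs, as was Cyp2c69. Shares of all genes in the fit without the DSS mice are not given. The 8 lower and 2 higher members of that fit therefore have no background and are not read as particular to the members. DESeq2 found 2 members lower, Cyp2c69 and Ces1d, and 0 higher, and 13 members had an unadjusted P under 0.05 in edgeR. The median log2 fold change was -0.34, against 0.00 over all genes. The absence of other calls does not show that the DSS + EA mice were at the control level. Without DSS mouse 1, 2 members were higher and 3 lower, while without control mouse 1 or DSS + EA mouse 3 none was lower.

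**Figure D2:**
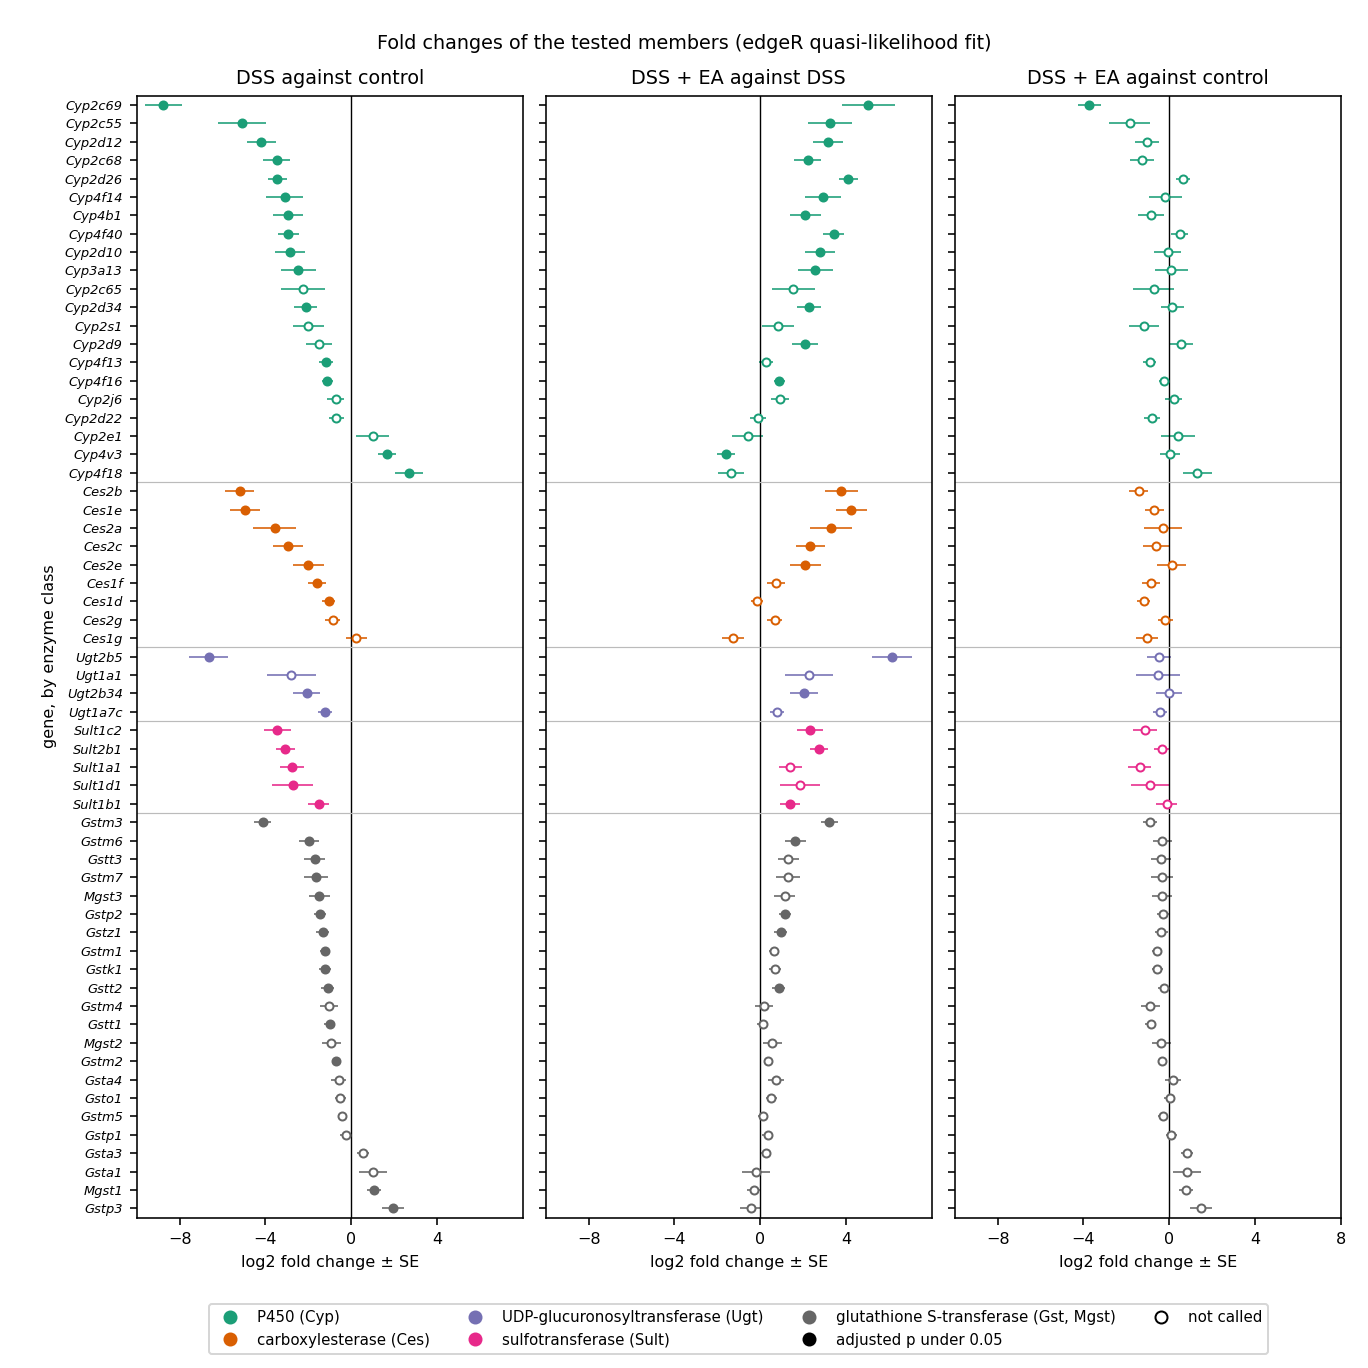
Log2 fold change (horizontal axis, bars ± SE) of each tested member in the 3 comparisons, with colour for the enzyme class and filled points for adjusted p under 0.05. In the first panel 40 filled points lie left of 0 and 4 right of it, in the second 1 and 28, and in the third Cyp2c69 is the only filled point.

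The Cyp2c genes on chromosome 19 oxidize drugs and arachidonic acid, and one of them, Cyp2c55, was the P450 with the most counts in the colon. Cyp2c55 (chr19:39007019-39042693) was counted at 1022, 639 and 2194 CPM in the control, 92.3, 15.2 and 6.55 CPM in the DSS and 280.0, 717 and 79.3 CPM in the DSS + EA mice. Every DSS mouse was below every control mouse, while the DSS + EA mice spread widely and reached into the DSS range. Its log2 fold change between DSS and control was -5.08 ± 1.12 (SE, adjusted p = 0.00568), and between DSS + EA and DSS it was 3.24 ± 1.03 (SE, adjusted p = 0.0339). The second difference did not pass without DSS mouse 2 or 3 or DSS + EA mouse 1 or 2 (adjusted p = 0.0562 to 0.115).

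Cyp2c69 was not detected with DSS. Its reads numbered 73, 66 and 23 for the control mice, 0 for every DSS mouse and 4, 5 and 2 for the DSS + EA mice. Against the floor of 3 counts per library, it was at least 19.3-fold lower in the DSS mice (adjusted p = 0.000255). Against the same floor the mean of the DSS + EA mice was at least 1.46-fold higher (adjusted p = 0.0162). DSS + EA mouse 3, with 2 counts, was itself under the floor, so the bound does not hold for every mouse. Cyp2c69 passed the filter with no DSS mouse at its limit, so both tests against the DSS mice were favoured in advance. With 1.22, 1.87 and 0.634 CPM against 18.6, 21.9 and 8.81 CPM, the DSS + EA mice stayed below all control mice, a log2 fold change of -3.72 ± 0.52 (SE, adjusted p = 0.00996). This difference did not pass without control mouse 1 or DSS + EA mouse 3 (adjusted p = 0.0586 to 0.0618). Its near-identical copy Cyp2c68 had 49.8, 62.5 and 20.7 CPM in the control, 8.04, 2.82 and 1.25 CPM in the DSS and 16.1, 28.8 and 10.8 CPM in the DSS + EA mice. It too was lower in all DSS mice than in any other mouse, with -3.48 ± 0.64 (SE, adjusted p = 0.00231) against the control group. With EA added it was 2.21 ± 0.64 (SE, adjusted p = 0.0237), which was lost without DSS mouse 2 or 3 or DSS + EA mouse 2 (adjusted p = 0.0582 to 0.0877). Cyp2c65, next to Cyp2c55, had 76.5, 55.5 and 178 CPM in the control, 60.2, 4.13 and 1.25 CPM in the DSS and 71.2, 79.9 and 36.8 CPM in the DSS + EA mice. Because DSS mouse 1 lay among the control mice its groups overlapped, and -2.26 (adjusted p = 0.103) and 1.54 (adjusted p = 0.253) did not pass.

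The Cyp2d cluster on chromosome 15 holds relatives of the human drug-metabolizing CYP2D6. Cyp2d26 had 10.2, 7.31 and 14.6 CPM in the control, 1.61, 0.435 and 0.936 CPM in the DSS and 18, 17.9 and 14.3 CPM in the DSS + EA mice. All 3 DSS mice were below every other mouse, and all 3 DSS + EA mice were at or near the highest control mouse. The log2 fold change was -3.45 ± 0.45 (SE, adjusted p = 0.000392) with DSS and 4.10 ± 0.44 (SE, adjusted p = 0.000386) with EA added. Between the DSS + EA and control groups it was 0.65 (adjusted p = 0.365). Cyp2d12 had 38.4, 38.9 and 7.28 CPM in the control, 1.61, 2.39 and 0.312 CPM in the DSS and 14.9, 14.6 and 12.4 CPM in the DSS + EA mice, with -4.20 (adjusted p = 0.00123) and 3.17 (adjusted p = 0.00741) in the first and second of these comparisons. For Cyp2d26 and Cyp2d12 no DSS mouse reached the filter limit, so their tests against the DSS mice were favoured in advance. Cyp2d34, the most counted of the cluster, had 234, 247 and 164 CPM in the control, 99.4, 34.8 and 14.4 CPM in the DSS and 286, 189 and 241 CPM in the DSS + EA mice. Its values were -2.12 ± 0.55 (SE, adjusted p = 0.0126) and 2.27 ± 0.55 (SE, adjusted p = 0.0116), and the first was lost without DSS mouse 2 (adjusted p = 0.0503). Cyp2d10 fell by 2.85 on the log2 scale (adjusted p = 0.00927) and was 2.78 higher with DSS + EA (adjusted p = 0.0129), lost without DSS mouse 2 (adjusted p = 0.0506). Cyp2d22 had the smallest change of all members with DSS + EA, -0.11 (adjusted p = 0.84).

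The Cyp4 enzymes hydroxylate fatty acids and eicosanoids at or near the end of the chain. Cyp4f14, which inactivates leukotriene B4, had 48.3, 41.2 and 69 CPM in the control, 17.4, 1.3 and 0.312 CPM in the DSS and 42.6, 54.9 and 42.8 CPM in the DSS + EA mice. The DSS mice did not overlap either other group, with -3.11 ± 0.86 (SE, adjusted p = 0.0166) against control. For DSS + EA it was 2.93 ± 0.86 (SE, adjusted p = 0.0247), lost without DSS mouse 2 or DSS + EA mouse 1, 2 or 3 (adjusted p = 0.0506 to 0.0701). Cyp4f40 had 8.89, 8.64 and 14.9 CPM in the control, 1.93, 1.52 and 0.624 CPM in the DSS and 15.8, 8.22 and 20.9 CPM in the DSS + EA mice, and it fell by 2.94 (adjusted p = 0.00145) and rose by 3.42 (adjusted p = 0.00113) on the log2 scale. It passed the filter with no DSS mouse at its limit, so both tests were favoured in advance. Cyp4b1, a fatty acid hydroxylase that also activates some toxicants, changed by -2.96 (adjusted p = 0.00827) with DSS and by 2.10 (adjusted p = 0.0458) with DSS + EA. The latter was lost without control mouse 1, DSS mouse 1 or 2 or DSS + EA mouse 1 or 2 (adjusted p = 0.0618 to 0.151).

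A relative in the same family moved the other way. Cyp4f18, which lies apart from the cluster at chr8:71988482-72009626 and breaks down leukotriene B4 in neutrophils, had 1.27, 3.99 and 4.6 CPM in the control, 8.04, 14.8 and 39.3 CPM in the DSS and 10.3, 4.11 and 9.2 CPM in the DSS + EA mice. All DSS mice were above all control mice, with 2.69 ± 0.66 (SE, adjusted p = 0.00983), whereas the DSS + EA mice overlapped the DSS mice, with -1.37 ± 0.60 (SE, adjusted p = 0.0984). Its DSS values were lowest in mouse 1 and highest in mouse 3. The summed neutrophil markers of these mice had the same order, at 5067, 26013 and 32175 CPM. Their part in the result was not tested. Cyp4v3, the mouse counterpart of human CYP4V2, had 3.05, 3.66 and 6.51 CPM in the control, 11.9, 10.4 and 19 CPM in the DSS and 2.74, 7.1 and 3.81 CPM in the DSS + EA mice. It was higher in every DSS mouse than in any other mouse, by 1.66 ± 0.43 (SE, adjusted p = 0.0121) against control. With EA added it changed by -1.61 ± 0.43 (SE, adjusted p = 0.0166). The first did not pass without control mouse 1 or 2 (adjusted p = 0.0512 to 0.0583), and the second did not pass without DSS mouse 3 or DSS + EA mouse 1 or 3 (adjusted p = 0.0513 to 0.0614).

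Among the other P450 genes, Cyp3a13, a drug-oxidizing enzyme and known PXR target, had 123, 84.8 and 173 CPM in the control, 59.2, 6.3 and 4.37 CPM in the DSS and 130.3, 184 and 96.1 CPM in the DSS + EA mice. The DSS mice were below both other groups, by -2.46 ± 0.81 (SE, adjusted p = 0.0344) and 2.57 ± 0.81 (SE, adjusted p = 0.0336). Both calls depended on single mice: the first was lost without control mouse 1 or 3 or DSS mouse 2 or 3 (adjusted p = 0.0676 to 0.0937) and the second without control mouse 1, DSS mouse 2 or 3 or DSS + EA mouse 1, 2 or 3 (adjusted p = 0.0514 to 0.0925). Cyp2j6, which makes epoxides of arachidonic acid, changed by -0.72 (adjusted p = 0.184) with DSS and passed in neither comparison. Cyp2e1, the ethanol-oxidizing P450, was singled out after its values were seen because DSS mouse 3 stood apart, at 9.01, 5 and 40.3 CPM in the DSS mice against 4.07, 15 and 8.05 CPM in the control mice, and its difference did not pass (1.00, adjusted p = 0.315).

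Carboxylesterases hydrolyse ester drugs such as irinotecan and also triacylglycerols. Ces2c had 233, 243 and 359 CPM in the control, 84.6, 14.3 and 9.99 CPM in the DSS and 178, 214 and 156 CPM in the DSS + EA mice. Ces2a had 196, 146 and 316 CPM in the control, 50.8, 3.91 and 1.25 CPM in the DSS and 223, 213 and 104 CPM in the DSS + EA mice. For both genes the 3 DSS mice were below all other mice, with DSS mouse 1 several times above DSS mice 2 and 3. Ces2c changed by -2.95 ± 0.68 (SE, adjusted p = 0.00721) with DSS and 2.34 ± 0.67 (SE, adjusted p = 0.0222) with DSS + EA. The latter was lost without DSS mouse 2 or DSS + EA mouse 2 (adjusted p = 0.0555 to 0.069). Ces2a changed by -3.57 ± 1.00 (SE, adjusted p = 0.0173) and 3.29 ± 0.99 (SE, adjusted p = 0.0274). The first was lost without DSS mouse 2 (adjusted p = 0.0511) and the second without DSS mouse 2 or DSS + EA mouse 1 or 2 (adjusted p = 0.0617 to 0.0773). Ces2e fell by 1.99 (adjusted p = 0.0471) and was 2.10 higher with DSS + EA (adjusted p = 0.0437) on the log2 scale. Without any 1 of the mice other than DSS mouse 1 neither call held, with adjusted p from 0.0594 to 0.14 and from 0.0549 to 0.13 respectively.

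A pair of low carboxylesterase genes was close to 0 in the DSS libraries. Reads of Ces1e numbered 23, 20 and 22 for the control, 2, 0 and 0 for the DSS and 16, 9 and 14 for the DSS + EA mice. Scaled to the library sizes, the ratio of control to DSS counts was 37.1 (95% interval 9.88 to 313) and that of DSS + EA to DSS counts 23.4 (95% interval 6.05 to 199.6). Ces2b, with 45 counts over the control mice, 1 over the DSS mice and 16 over the DSS + EA mice, had ratios of 51.4 (95% interval 8.77 to 2076) and 19.2 (95% interval 2.98 to 803). The intervals of both genes cover counting error in pooled reads and leave out the spread between mice. Both genes passed in both comparisons (Ces1e adjusted p = 0.000533 and 0.00231, Ces2b adjusted p = 0.000422 and 0.00595), and their fitted fold changes depend on the prior count. Since no DSS mouse reached the filter limit for either gene, these tests were favoured in advance.

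Other carboxylesterases did not rise with EA. Ces1d, a triacylglycerol hydrolase, had 46.5, 37.9 and 57.5 CPM in the control, 29, 19.3 and 20.3 CPM in the DSS and 19.5, 28.4 and 14.3 CPM in the DSS + EA mice. It fell with DSS by 1.05 on the log2 scale (adjusted p = 0.0166), a call lost without control mouse 3 or DSS mouse 2 (adjusted p = 0.0569 to 0.0598). The DSS + EA mice overlapped the DSS mice (-0.14, adjusted p = 0.728) and lay below all control mice without passing (-1.19, adjusted p = 0.0573), while DESeq2 called it (adjusted p = 0.0121). Ces1f changed by -1.59 (adjusted p = 0.015) with DSS, lost without control mouse 3 (adjusted p = 0.0577), and by 0.73 (adjusted p = 0.206) with DSS + EA. Ces1g, which also hydrolyses lipids in liver and gut, had the smallest change with DSS of all members, 0.24 ± 0.49 (SE, adjusted p = 0.716), from 20.3, 8.64 and 42.9 CPM in the control, 21.2, 28.9 and 34.3 CPM in the DSS and 11, 16.4 and 7.61 CPM in the DSS + EA mice. Its DSS + EA mice were all below its DSS mice, a difference that did not pass (-1.28, adjusted p = 0.0737).

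**Figure D3:**
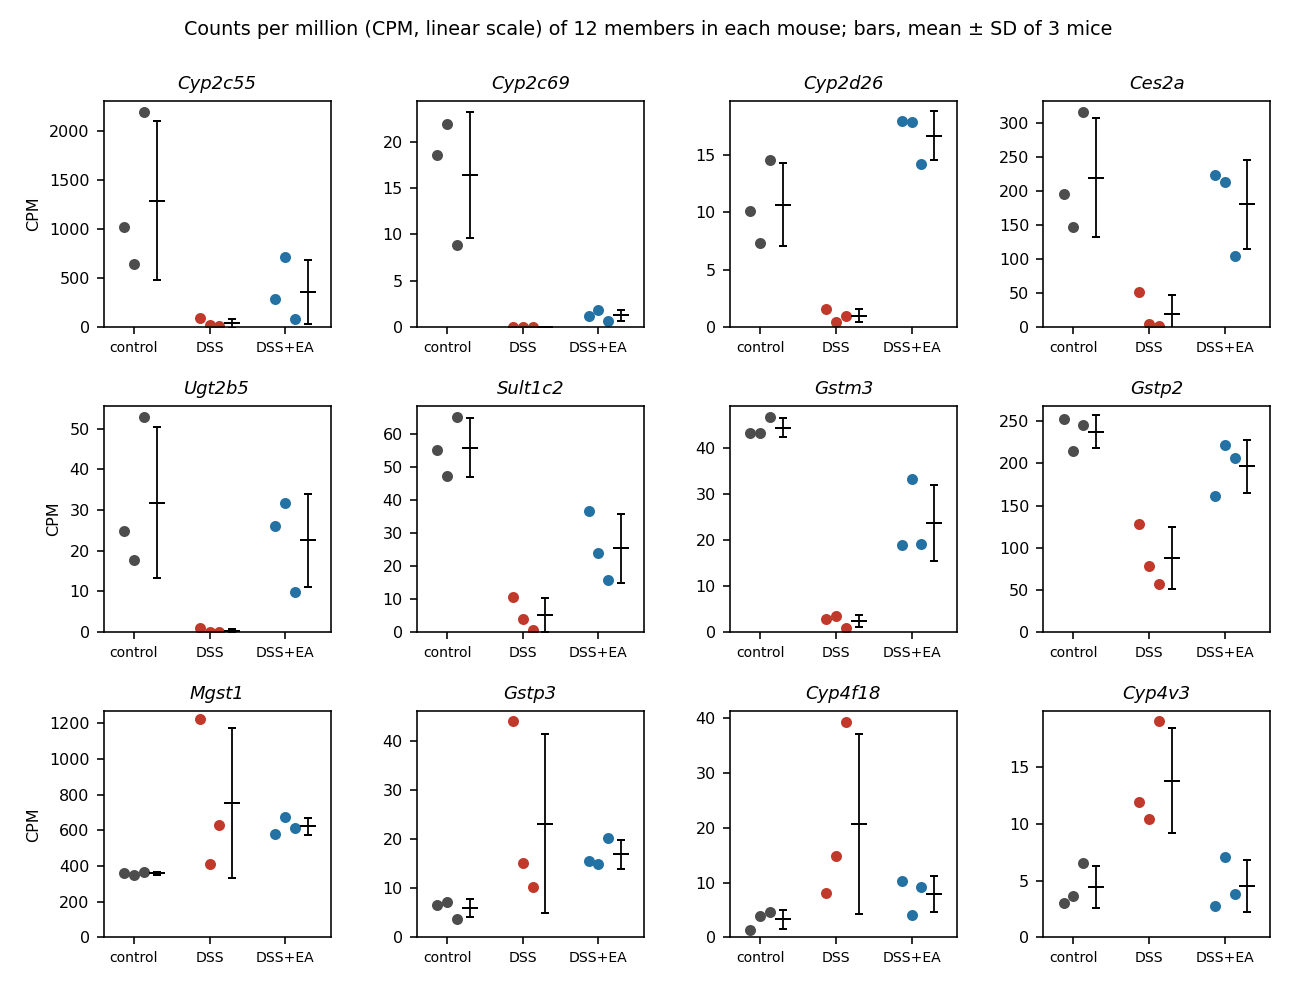
CPM of 12 members in every mouse (points, linear axes from 0, a scale for each gene), with the mean ± SD of 3 mice beside them and the lower bar end cut at 0 where it would fall under it. The genes from Cyp2c55 to Gstp2 are low in the DSS mice, Cyp2c69 at 0 in all of them, while Mgst1, Gstp3, Cyp4f18 and Cyp4v3 are above the control mice in all DSS mice.

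Glucuronosyltransferases attach glucuronic acid to bilirubin, steroids, bile acids and drugs. Ugt2b5 was close to 0 in the DSS libraries, with 98, 53 and 138 reads for the control, 3, 0 and 0 for the DSS and 86, 85 and 31 for the DSS + EA mice. The ratio of control to DSS counts was 110.1 (95% interval 37.3 to 537) after scaling, and that of DSS + EA to DSS counts was 80.6 (95% interval 27.2 to 394). These intervals cover counting error in pooled reads, not the spread between mice, and all DSS reads came from DSS mouse 1. In the fit the adjusted p-values were 0.000497 and 0.00133. Both tests were favoured in advance, since Ugt2b5 passed the filter with no DSS mouse at its limit. In CPM the DSS + EA mice (26.2, 31.7 and 9.83) overlapped the control mice (24.9, 17.6 and 52.9).

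Ugt2b34 had 111, 140.0 and 174 CPM in the control, 74.6, 18.5 and 8.43 CPM in the DSS and 131, 188 and 99.6 CPM in the DSS + EA mice. The DSS mice were below both other groups, at -2.07 ± 0.64 (SE, adjusted p = 0.0261) and 2.05 ± 0.64 (SE, adjusted p = 0.031). Of all tested members it had the smallest difference between DSS + EA and control, -0.02 (adjusted p = 0.994). The first call was lost without control mouse 2 or 3 or DSS mouse 2 (adjusted p = 0.0555 to 0.0892) and the second without DSS mouse 2 or DSS + EA mouse 1, 2 or 3 (adjusted p = 0.0523 to 0.103). At the Ugt1a locus Ugt1a7c had 223, 178 and 361 CPM in the control, 156, 84.7 and 85.2 CPM in the DSS and 186, 219.6 and 159 CPM in the DSS + EA mice. It fell by 1.22 on the log2 scale (adjusted p = 0.0133), a call lost without control mouse 3 (adjusted p = 0.0538), and changed by 0.79 (adjusted p = 0.0768) with EA added. Ugt1a1, the bilirubin-conjugating enzyme, had 38.1, 11 and 62.8 CPM in the control, 16.1, 0.652 and 0 CPM in the DSS and 22.2, 46.3 and 9.83 CPM in the DSS + EA mice. It was near the floor in DSS mice 2 and 3 but not in DSS mouse 1, so the groups overlapped, and -2.80 (adjusted p = 0.0742) did not pass. The untested Ugt2b36 had 24 counts over the control mice, 2 over the DSS mice and 10 over the DSS + EA mice, a control to DSS ratio of 13.7 (95% interval 3.4 to 119.7). That interval covers counting error in pooled reads, not the spread between mice, and both DSS reads came from DSS mouse 1.

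All 5 sulfotransferases fell with DSS, and relative to epithelial transcripts 4 of them did, with 0 of 5 changing direction. Sult2b1, which sulfates cholesterol and other hydroxysteroids, had 39.9, 42.6 and 42.2 CPM in the control, 9.01, 4.35 and 1.56 CPM in the DSS and 33.8, 29.1 and 36.8 CPM in the DSS + EA mice. Its groups were tight and the DSS mice far below them, at -3.07 ± 0.43 (SE, adjusted p = 0.000592) and 2.75 ± 0.43 (SE, adjusted p = 0.00162). Sult1a1, which sulfates phenols, had 349.9, 258 and 335 CPM in the control, 90.7, 21.9 and 25.9 CPM in the DSS and 91.9, 201 and 73.9 CPM in the DSS + EA mice, with -2.77 ± 0.57 (SE, adjusted p = 0.00402) for DSS against control. Its DSS + EA mice 1 and 3 stayed close to DSS mouse 1, and 1.41 (adjusted p = 0.0675) did not pass. Sult1c2 had 55.1, 47.2 and 65.1 CPM in the control, 10.6, 4.13 and 0.624 CPM in the DSS and 36.5, 23.9 and 15.9 CPM in the DSS + EA mice. It changed by -3.45 ± 0.63 (SE, adjusted p = 0.00221) with DSS and 2.32 ± 0.62 (SE, adjusted p = 0.0171) with EA added, the second lost without DSS mouse 2 or DSS + EA mouse 1 (adjusted p = 0.0607 to 0.0619).

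Sult1b1 and Sult1d1 lie side by side on chromosome 5 and act on thyroid hormones and catecholamines. Sult1d1, the most counted of the class, had 320.4, 405 and 591 CPM in the control, 176, 16.5 and 6.55 CPM in the DSS and 251, 322 and 147 CPM in the DSS + EA mice. DSS mouse 1 stood more than 10 times above DSS mice 2 and 3 and within the DSS + EA range. The fall of 2.73 on the log2 scale (adjusted p = 0.0432) was lost without control mouse 1, 2 or 3, DSS mouse 2 or 3 or DSS + EA mouse 1, 2 or 3 (adjusted p = 0.0553 to 0.115). Sult1b1 had 175, 193 and 212 CPM in the control, 138, 36.5 and 30 CPM in the DSS and 187, 173 and 173 CPM in the DSS + EA mice, with -1.51 (adjusted p = 0.0309) for DSS, lost without control mouse 1, 2 or 3 or DSS mouse 2 or 3 (adjusted p = 0.0584 to 0.0963). With EA added it was 1.39 (adjusted p = 0.0475), lost without control mouse 1, 2 or 3, DSS mouse 2 or 3 or DSS + EA mouse 1, 2 or 3 (adjusted p = 0.0639 to 0.137).

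Glutathione S-transferases couple glutathione to reactive molecules, and this class held both the smallest p-value of the members and several genes that did not fall. Gstm3, of the mu class, had 43.2, 43.2 and 46.8 CPM in the control, 2.9, 3.48 and 0.936 CPM in the DSS and 18.9, 33.2 and 19 CPM in the DSS + EA mice. The control mice were within a narrow range, the DSS mice were at least 10 times lower, and the DSS + EA mice lay between them without touching either. The log2 fold change was -4.13 ± 0.40 (SE, adjusted p = 9.28e-05) with DSS and 3.22 ± 0.40 (SE, adjusted p = 0.000627) with EA added. Between DSS + EA and control it was -0.91 (adjusted p = 0.191). Of the other mu-class genes of the chromosome 3 cluster, Gstm1 (-1.23), Gstm2 (-0.71), Gstm6 (-1.95) and Gstm7 (-1.63) fell with DSS and Gstm4 and Gstm5 did not pass, with Gstm1 and Gstm2 changing direction under the epithelial scaling. Gstm6 passed the filter with no DSS mouse at its limit, which favoured its test in advance. The call of Gstm7 was lost without control mouse 1, 2 or 3, DSS mouse 2 or 3 or DSS + EA mouse 3 (adjusted p = 0.0561 to 0.128), and that of Gstm2 without control mouse 1 or 2 or DSS mouse 2 or 3 (adjusted p = 0.0528 to 0.0633).

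In the pi class 3 neighbours on chromosome 19 gave 3 different results with DSS. Gstp1 (chr19:4035407-4037985), the most counted member, had 717, 650.3 and 929 CPM in the control, 834, 607 and 480.3 CPM in the DSS and 634, 989 and 833 CPM in the DSS + EA mice, and its groups overlapped, at -0.26 (adjusted p = 0.451) with DSS and 0.35 (adjusted p = 0.303) with EA added. Gstp2 (chr19:4040285-4046023), its near-identical copy, had 253, 215 and 245 CPM in the control, 128, 78.4 and 57.1 CPM in the DSS and 161, 221 and 207 CPM in the DSS + EA mice. It was lower in every DSS mouse than in any other mouse, at -1.43 ± 0.28 (SE, adjusted p = 0.0032) and 1.16 ± 0.28 (SE, adjusted p = 0.011). Relative to epithelial transcripts, a scaling described below, both calls ended, at -0.07 and 0.10. Gstp3 (chr19:4057477-4059569) had 6.61, 7.31 and 3.83 CPM in the control, 44.1, 15.2 and 10.3 CPM in the DSS and 15.5, 14.9 and 20.3 CPM in the DSS + EA mice and was higher in every DSS and DSS + EA mouse than in any control mouse. Its log2 fold change was 1.94 ± 0.52 (SE, adjusted p = 0.014) with DSS, lost without control mouse 3 (adjusted p = 0.057). It was -0.44 (adjusted p = 0.489) with EA added and 1.50 (adjusted p = 0.175) between DSS + EA and control. Reads of Gstp1 and Gstp2 may have been assigned to one another, so that their difference is uncertain.

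The microsomal enzymes, which sit in membranes and also reduce lipid peroxides, moved apart as well. Mgst1 had 359, 349 and 369 CPM in the control, 1222, 413 and 628 CPM in the DSS and 582, 676 and 611 CPM in the DSS + EA mice. The control mice were close to each other and below every DSS and DSS + EA mouse, and DSS mouse 1 was the highest. Its log2 fold change was 1.07 ± 0.33 (SE, adjusted p = 0.0268) with DSS, lost without control mouse 1, 2 or 3 (adjusted p = 0.0776 to 0.0886). With EA added it was -0.28 (adjusted p = 0.534). Mgst3 had 939.7, 924 and 1098 CPM in the control, 694, 234 and 133 CPM in the DSS and 748, 834 and 754 CPM in the DSS + EA mice, which is -1.48 ± 0.48 (SE, adjusted p = 0.0326) with DSS and 1.14 (adjusted p = 0.0875) with EA added. The first was lost without control mouse 1, 2 or 3 or DSS mouse 2 or 3 (adjusted p = 0.0526 to 0.108), and under the epithelial scaling it was -0.37 and not called. The omega-class Gsto1, which reduces dehydroascorbate, had 354, 352 and 416 CPM in the control, 377, 249 and 169 CPM in the DSS and 386, 389.9 and 359.7 CPM in the DSS + EA mice, and neither comparison passed, at -0.50 (adjusted p = 0.153) and 0.51 (adjusted p = 0.146).

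None of the 3 alpha-class genes passed with DSS. Gsta1, looked up after its values were seen, was highest in DSS mouse 1, at 404, 113 and 40.3 CPM in the DSS mice and 66.6, 73.5 and 135 CPM in the control mice (1.02, adjusted p = 0.242). Gsta3 had 0.56 (adjusted p = 0.131) with DSS and 0.81 (adjusted p = 0.168) for DSS + EA against control, although all its DSS and DSS + EA mice were above its control mice. The theta-class Gstt1 fell with DSS by 0.99 on the log2 scale (adjusted p = 0.0125) and had -0.86 (adjusted p = 0.11) between DSS + EA and control, and its direction with DSS changed under the epithelial scaling.

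Among genes that control or serve these enzymes, 14 of 17 listed sensors and regulators were tested, of which 4 fell and 3 rose with DSS (median -0.72). Of all genes tested 19.5% fell and 21.5% rose with DSS, so these counts are not read as a result about the list. Hnf4a, whose motif is marked in 3 of the sequences above, had 127, 132 and 112 CPM in the control, 50.5, 20.4 and 8.74 CPM in the DSS and 125, 130.0 and 126 CPM in the DSS + EA mice, with -2.22 (adjusted p = 0.00509) and 2.26 (adjusted p = 0.00624). Nr1i2, which encodes the drug sensor PXR, had 29.2, 28.6 and 29.1 CPM in the control, 10.3, 6.74 and 1.56 CPM in the DSS and 33.8, 19.8 and 22.8 CPM in the DSS + EA mice, with -2.22 (adjusted p = 0.00477) and 2.03 (adjusted p = 0.00923). For both genes the DSS mice were below both other groups. The vitamin D receptor Vdr and the fatty acid receptor Ppara fell with DSS by 2.37 and 2.49 on the log2 scale (adjusted p = 0.0168 and 0.0115).

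Nfe2l2, which encodes NRF2, the regulator of the antioxidant response, moved in the other direction, with 111, 116 and 130.3 CPM in the control, 367, 163 and 285 CPM in the DSS and 95, 145 and 108 CPM in the DSS + EA mice. It rose by 1.19 (adjusted p = 0.00886) with DSS and changed by -1.23 (adjusted p = 0.00985) with DSS + EA. Arnt, the partner of the aryl hydrocarbon receptor, and Tiparp, a target of that receptor, also rose with DSS, by 0.77 (adjusted p = 0.0446) and 2.50 (adjusted p = 0.016). With EA added 2 of the 14 regulators rose and 1 fell, against 17.2% and 18.3% of all genes tested, and 0 differed between the DSS + EA and control groups.

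Genes that supply the cofactors of these enzymes did not all move one way. Ugdh, which makes the UDP-glucuronic acid used by the Ugt enzymes, had 258, 166 and 441 CPM in the control, 56, 35.2 and 35.9 CPM in the DSS and 137, 188 and 93.6 CPM in the DSS + EA mice, with -2.77 (adjusted p = 0.000672) and 1.72 (adjusted p = 0.00829). Ugp2, one step before it, and Papss1, which makes the sulfate donor of the Sult enzymes, fell by 0.91 and 1.12 on the log2 scale with DSS (adjusted p = 0.0199 and 0.0121), a direction that changed under the epithelial scaling. By contrast Gclc, the rate-limiting enzyme of glutathione synthesis, had 35.8, 30.3 and 42.2 CPM in the control, 119, 107 and 105 CPM in the DSS and 36.5, 40.3 and 30.1 CPM in the DSS + EA mice, with 1.61 (adjusted p = 0.00027) and -1.63 (adjusted p = 0.000542), and every DSS mouse was above every other mouse. Gsr, which regenerates glutathione, rose by 1.92 (adjusted p = 0.00375) and changed by -1.89 (adjusted p = 0.00553) with DSS + EA. Por, the reductase that feeds electrons to P450 enzymes, rose with DSS by 0.81 (adjusted p = 0.038). Over the whole list 24 of 25 genes were tested, of which 9 fell and 5 rose with DSS (median -0.53), and 8 rose and 3 fell with EA added (median 0.32). Over all genes tested 19.5% fell and 21.5% rose with DSS, and 17.2% rose and 18.3% fell with EA added.

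Of 12 listed transporters 11 were tested, of which 4 fell and 5 rose with DSS, and 3 were higher and 3 lower with EA added. The shares over all genes tested, given just above, are the background for this list and for the steroid and retinoid list. The efflux pumps Abcg2 and Abcb1a fell by 1.62 and 2.02 on the log2 scale with DSS (adjusted p = 0.0096 and 0.0321), and Abcc1 and Abcc4 rose by 1.47 and 2.16 (adjusted p = 0.00132 and 0.00245). Slc26a2, which brings sulfate into the cell, changed by -2.33 (adjusted p = 0.00711) with DSS and 2.04 (adjusted p = 0.0154) with DSS + EA. In a list of 24 steroid and retinoid enzymes outside the rule, 13 were tested, of which 5 fell and 2 rose with DSS and 5 were higher and 2 lower with DSS + EA. Hsd11b2, which inactivates glucocorticoids, changed by -1.84 (adjusted p = 0.0393) and 2.13 (adjusted p = 0.0255), and its counterpart Hsd11b1, which reactivates them, by 3.21 (adjusted p = 0.000109) and -2.04 (adjusted p = 0.00128). Cyp7b1, which hydroxylates oxysterols, changed by 3.86 (adjusted p = 7.45e-05) and -2.44 (adjusted p = 0.000709).

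The makeup of the tissue moved with these results. The 8 epithelial markers (Epcam, Cdh1, Krt8, Krt18, Krt19, Cldn3, Cldn7 and Vil1) summed to 5396 to 6441 CPM in the control mice, to 4096, 2351 and 1087 CPM in the DSS mice and to 4149.7 to 5561 CPM in the DSS + EA mice. Of the 8, 4 fell with DSS and 3 rose with EA added. The 12 markers of surface colonocytes, among them Car1, Aqp8 and Slc26a3, summed to 20898 to 39114, 3899 to 18592 and 27118 to 31661 CPM in the 3 groups. Of these 8 fell with DSS (median -1.88) and 8 rose with EA added (median 1.95). Of the 40 members that fell, 34 (85.0%) were highest in DSS mouse 1 among the DSS mice, against 61.1% of the 2446 genes of the whole table that fell. The lowest DSS mouse was mouse 3 for 24 of these members, mouse 2 for 13 and mouse 1 for 3, and it was mouse 3 for 48.2% of all genes that fell. The part of the tissue makeup in these orders was not tested. In bulk tissue, fewer cells of a type and less RNA per cell cannot be told apart.

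Markers of other cells also differed between the groups. All 11 tested neutrophil markers rose with DSS. They summed to 33 to 164 CPM in the control mice, 5067 to 32175 CPM in the DSS mice and 1422 to 1717 CPM in the DSS + EA mice. Of 10 macrophage markers 9 rose (474 to 492, 1536 to 2832 and 976 to 1054 CPM). Of the 12 fibroblast and smooth muscle markers 6 rose and 5 fell with DSS. All 11 tested pancreatic acinar genes were higher with EA added. They summed to 609, 42106 and 16698 CPM in DSS + EA mice 1, 2 and 3 and 42.8 to 104 CPM in the DSS mice. Of 6 small intestinal genes 4 were higher with EA added. Of 12 hepatocyte markers 3 were tested, with 68.2 to 117, 104 to 155 and 109 to 131 CPM summed in the 3 groups. The 3 tested homeobox genes of the posterior colon were called in no comparison. The part of these tissues and cells in the members' results was not tested. The epithelial scaling that follows only makes values relative to the 8 epithelial markers and is no test of it.

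**Figure D4:**
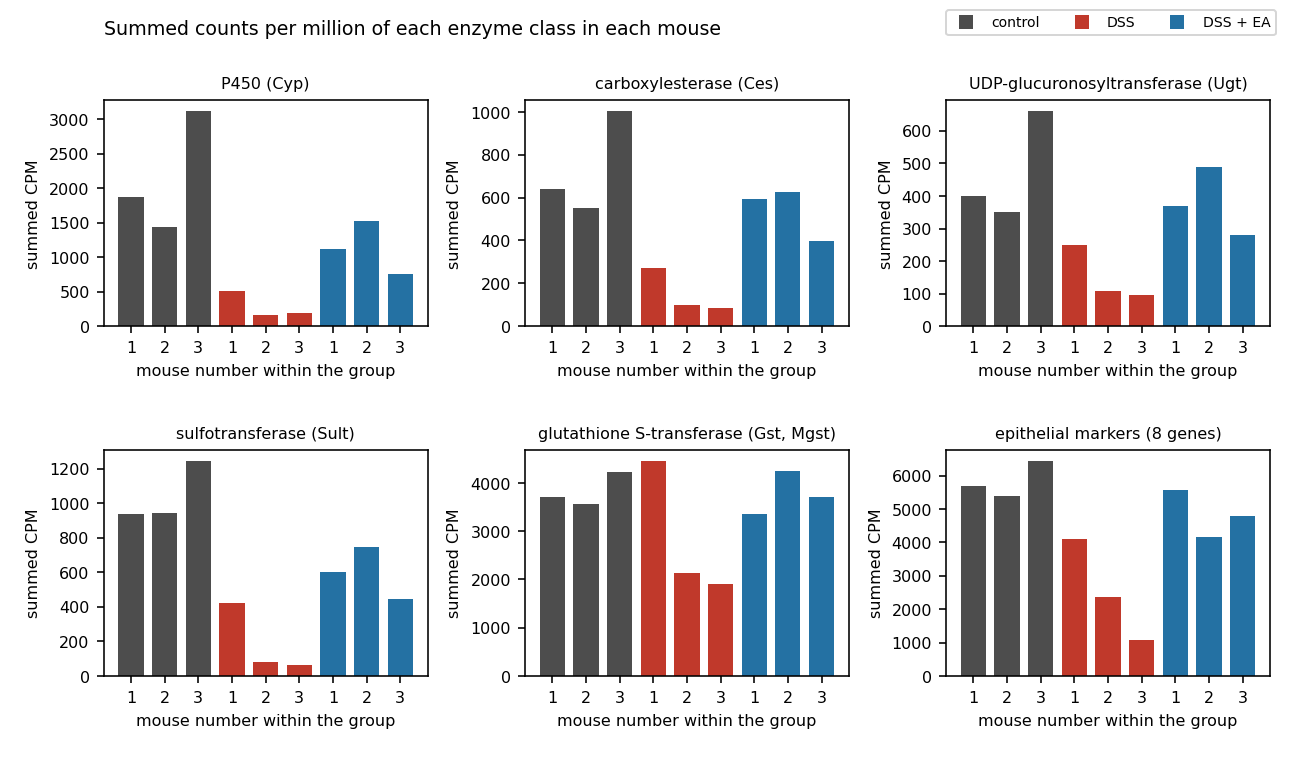
Summed CPM (bars, axes from 0) of each enzyme class and of the 8 epithelial markers in every mouse, coloured by group. In all panels DSS mouse 1 is the tallest DSS bar, and in the Gst panel it exceeds the control mice, at 4457 CPM.

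When library sizes were set to the summed epithelial markers, so that values are relative to epithelial transcripts, part of the DSS difference went away. Under this scaling the median log2 fold change of all genes tested shifted by 1.55 for DSS against control, and 58.6% of all genes were higher and 3.00% lower. Against that background 20 members were lower and 9 higher, with a median of -0.37 against 1.59 over all genes. By class the median was -1.29 for Cyp, -1.07 for Ces, -1.93 for Sult, -1.52 for Ugt and 0.42 for Gst and Mgst genes, of which 9, 4, 4, 2 and 1 fell. Of the 40 members that fell under the TMM scaling, 19 stayed lower, 21 were not called and 0 were higher. Ugt2b5 (-5.52), Cyp2c55 (-4.17), Gstm3 (-2.87), Cyp2d26 (-2.14) and Sult2b1 (-1.93) were among those still lower per epithelial transcript, as log2 fold changes. The direction of Ces1d, Cyp4f13, Cyp4f16, Gstk1, Gstm1, Gstm2, Gstt1, Gstt2, Gstz1 and Ugt1a7c was reversed, without a call. Another 11 kept a negative value that did not pass: Ces1f (-0.18), Ces2e (-1.07), Cyp2d34 (-1.10), Cyp4b1 (-1.29), Gstm6 (-0.76), Gstm7 (-0.44), Gstp2 (-0.07), Gstt3 (-0.62), Mgst3 (-0.37), Sult1b1 (-0.37) and Ugt2b34 (-1.08). The members that were higher under it were Cyp4f18 (4.69), Cyp4v3 (3.42), Gstp3 (3.09), Mgst1 (2.51), Cyp2e1 (3.08), Ces1g (2.02), Gsta3 (2.01), Gsta1 (1.99) and Gstp1 (1.21).

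For DSS + EA against DSS the same scaling shifted all genes by -1.27, with 2.97% higher and 46.6% lower, and left 19 members higher and 7 lower, with a median of 0.33 against -1.32 over all genes. Of the 28 members that rose with EA added, 19 stayed higher, Cyp4f16, Gstt2 and Gstz1 changed direction, and Cyp2c68 (1.43), Cyp2d9 (1.34), Cyp4b1 (0.81), Gstm6 (0.75), Gstp2 (0.10) and Sult1b1 (0.54) did not pass. By class the median was 1.34 for Cyp, 1.48 for Ces, 1.43 for Sult, 1.62 for Ugt and -0.50 for Gst and Mgst genes. Among the regulators and partners Hnf4a stayed lower with DSS (-1.13) and higher with DSS + EA (1.45), as did Slc26a2 (-1.28 and 1.30), and Ugdh stayed lower with DSS (-1.24). Nr1i2 kept its direction without passing (-1.09 and 1.15), as did Ppara (-1.27), Abcg2 (-0.32), Abcb1a (-0.99) and Hsd11b2 with DSS (-0.87), whereas Ugp2 (0.54) and Papss1 (0.30) changed direction. Nfe2l2, Gclc, Gsr, Por, Abcc1, Abcc4, Hsd11b1 and Cyp7b1 stayed higher with DSS. As this scaling shifted all genes upward in DSS, with 58.6% of them higher, that is not read as a result about these genes.

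**Figure D5:**
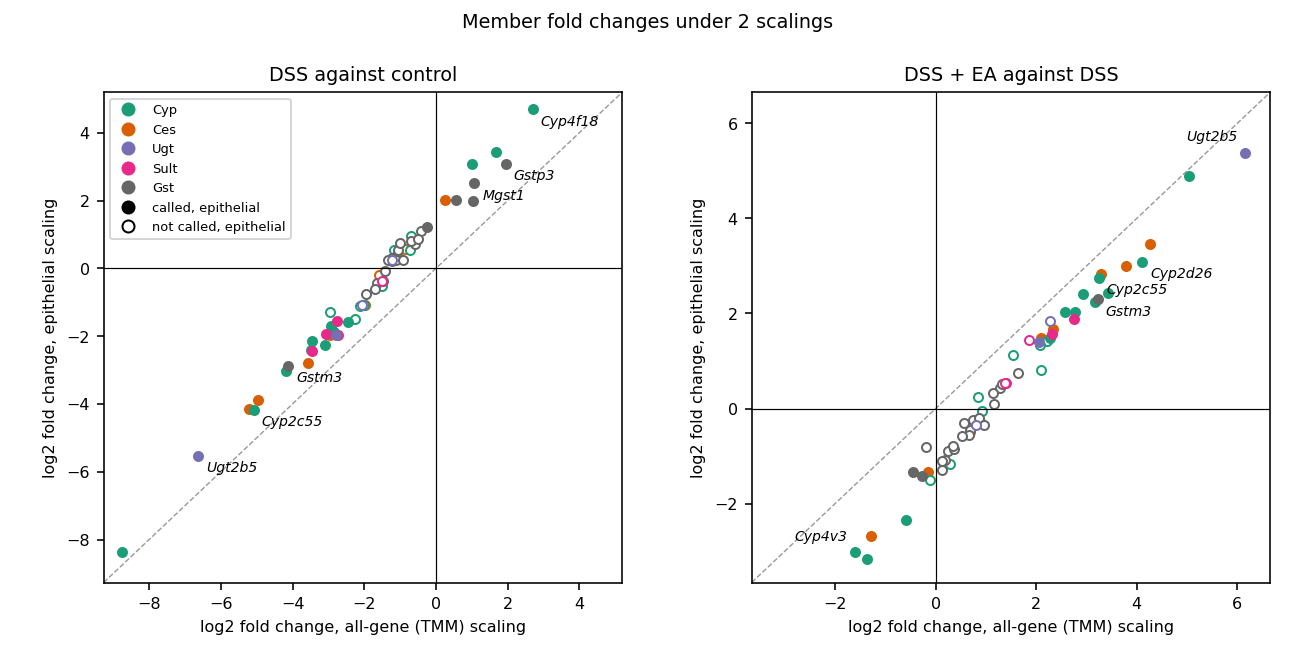
Log2 fold change of each tested member under the all-gene (TMM) scaling (horizontal axis) and the epithelial scaling (vertical axis), for the effect of DSS and of added EA, filled where adjusted p was under 0.05 with the epithelial scaling; the dashed line marks equal values. Points lie above the line in the first panel and below it in the second, with 20 members called lower in the first and 19 called higher in the second.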

How the data were processed

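The authors deposited whole-number read counts per gene and mouse, not normalized. The sequencing was of PCR-amplified full-length cDNA made from total colon RNA. The build mm10 is named in the submitters' processing notes, while the aligner, the counting tool, the annotation and the use of strand are not given in the sources used here. Of 27733 lines, 14 without counts were skipped. No pair of libraries held identical values.

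Counts were tested with edgeR 4.0.16 in R 4.3.3 (filterByExpr by group with a count limit of 10, TMM normalization, prior count 0.125, quasi-likelihood F test, Benjamini-Hochberg adjustment over 12566 genes) in one fit of the 9 libraries with group as the only term. The SE is the log2 fold change divided by the square root of F. The p-values measure the spread between these mice. The method was tested on simulated counts. Alternatives were DESeq2 1.42.0, RLE or library totals in place of TMM, library sizes from 8 epithelial markers, no filter or a mean of 20 counts, only the groups compared, a threshold of 0.01, the replicate number as a block, and each mouse left out.

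Members named with values are the 5 most counted of each class, the DEGs, the 3 smallest P in each direction, and those with the smallest change, while others are named as chosen after their values were seen or within counts of their class. Count ratios have exact binomial intervals, conditional on the summed counts, which pool the mice of a group and leave out the spread between mice. Positions and coding sequences are from GENCODE M21 on GRCm38 and promoter sequences from RefSeq on GRCm38.p6. Coding sequences were aligned with Biopython 1.88 in place of proteins. Python 3.11.15, pandas 2.3.3 and matplotlib 3.10.9 were also used. The members and gene lists were chosen with earlier results of these data known. With 3 mice in a group, single outlying mice were not tested for.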

Additional observations from a re-analysis of the deposited data

How the results depend on the processing

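Of 44 members called between the DSS and control groups, 17 were called in every refit that included them, 3 of which were too low for some refit, and 13 of the other 14 also had an adjusted p under 0.01. The call of 18 was lost when some single mouse was left out. Of 29 called between DSS + EA and DSS, 10 were called in every refit that included them, 3 of which were too low for some refit, 6 of the other 7 had an adjusted p under 0.01, and 18 lost the call without some mouse. Ces1e, Ces2b, Cyp2c69, Cyp2d12, Cyp2d26, Cyp4f40 and Ugt2b5 are among both the 17 and the 10. They passed the filter with no DSS mouse at its limit, so their calls were favoured in advance. Shares of all genes called in every refit are not given, so these counts are not read as particular to the members. The single call between DSS + EA and control was lost without control mouse 1 or DSS + EA mouse 3. A fit with a mouse fewer has less power, and which part of each loss comes from that was not tested.

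With the epithelial scaling 9 members were higher and 20 lower in DSS (median -0.37), 7 were lower in DSS + EA against DSS (median 0.33), and the summed members, in the same units, were 5996 in the control and 6708 in the DSS group. These 2 means hide a wide spread between the DSS mice. Member and epithelial counts were 18382 and 12732, 11837 and 10820, and 7498 and 3483 in DSS mice 1, 2 and 3. Relative to epithelial counts DSS mouse 3 was above every control mouse and DSS mouse 2 below every control mouse. The epithelial scaling reversed, for DSS, Ces1d (0.47), Cyp4f13 (0.54), Cyp4f16 (0.36), Gstk1 (0.21), Gstm1 (0.30), Gstm2 (0.82), Gstt1 (0.74), Gstt2 (0.25), Gstz1 (0.24) and Ugt1a7c (0.25), and, for DSS + EA against DSS, Cyp4f16 (-0.29), Gstt2 (-0.21) and Gstz1 (-0.34), all as log2 fold changes. The same scaling shifted the median log2 fold change of all genes tested by 1.55 for DSS and by -1.27 for DSS + EA against DSS. Whether anything beyond this general shift took part in the reversals was not tested.

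Shares of all genes called are given for the main fit and the epithelial scaling only. Counts of members under the other settings have no such background beside them. An adjusted p under 0.01 left 1 higher and 22 lower in DSS, and 8 higher and 0 lower in DSS + EA against DSS. With only the groups compared, 12 members were higher and 2 lower in DSS + EA against DSS, and 2 higher and 8 lower in DSS + EA against control. A mean of 20 counts left 0 DEGs in the last comparison, since Cyp2c69 was filtered out, and Ces1d was then the 1 member lower (adjusted p = 0.0495, edgeR), while DESeq2 found 2 lower. Leaving out each mouse gave, for DSS against control, 2 to 5 higher, 27 to 50 lower, 14 to 31 DEGs and medians from -2.47 to -1.34. For DSS + EA against DSS it gave 11 to 45 higher, 0 to 2 lower, 8 to 25 DEGs and medians from 0.99 to 2.11, and for DSS + EA against control 0 to 2 higher and 0 to 3 lower. Same-numbered mice are different animals, and the 9 correlations of their deviations lay between -0.160 and 0.105. With the replicate number as a block, 3 members were higher and 41 lower in DSS, with 21 DEGs, 24 were higher and 1 lower in DSS + EA against DSS, and 1 was lower in DSS + EA against control. Depth limits the genes under about 3 counts per library, whose fold changes carry wide counting intervals.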

Other observations

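Of the untested members, Cyp3a44, a P450 of the 3a family, had reads numbering 7, 0 and 12 for the control mice, 0, 0 and 0 for the DSS mice and 11, 5 and 5 in the DSS + EA mice. Cyp2f2, a P450 best known from the airway, had 21, 21 and 2, 3, 1 and 0, and 10, 8 and 3 counts in the same order of groups. Cyp1b1, which metabolizes oestrogens and is a target of the aryl hydrocarbon receptor, had 1, 0 and 2 reads for the control mice and 2, 6 and 4 for the DSS mice. Ugt1a6b, a near-identical copy of Ugt1a7c in coding sequence, had reads numbering 0, 1 and 0 for the control mice, 1, 11 and 6 for the DSS mice and 0, 0 and 1 in the DSS + EA mice, while Ugt1a7c fell in the DSS group. Reads of this locus may have been divided between the copies, and no test was made of these genes.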
